A study of Mus musculus with 8 samples.

Results

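Markers of the liver sinusoidal endothelium were followed in whole mouse liver over 240 min that followed 1 dose of growth hormone (GH). The 10 genes, Stab1, Stab2, Kdr, Lyve1, Clec4g, Pecam1, Flt4, Tek, Oit3 and Fcgr2b, were taken by symbol from the 24197 genes of the deposited table, and all 10 were found and had enough reads to be tested. The animals were male CD-1 (ICR) mice aged 11 weeks, every one of them hypophysectomized by the supplier at 7 weeks. The pituitary is the source of circulating GH, so the controls lacked it too. The 4 groups were hypophysectomized mice without GH (Hypox) and hypophysectomized mice killed 30, 90 or 240 min after recombinant rat GH was injected once into the peritoneum, at 125 ng per g body weight. Each group had 8 mice, whose liver RNA was pooled by 4 into 2 libraries of rRNA-depleted, strand-specific total RNA. One label field calls the Hypox mice untreated and another says that controls received vehicle. All 3 GH groups were set against the same 2 Hypox libraries, and no time had a control of its own. One Hypox pool carries another prefix in its sample name than the other 7 libraries. What the prefix stands for is not stated in the labels, and since the recovered libraries cannot be matched to the pools, no comparison within a prefix could be made.

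Liver sinusoidal endothelial cells line the capillaries between plates of hepatocytes. They are perforated by open pores, lack a basement membrane, and clear waste macromolecules and immune complexes from blood through scavenger and Fc receptors. They also answer vascular endothelial growth factors and angiopoietins through receptor tyrosine kinases, and send growth and patterning signals to hepatocytes. Several of the 10 genes are not restricted to them: Kdr, Pecam1, Flt4 and Tek mark other blood or lymphatic endothelium, Lyve1 marks lymphatic vessels, and Stab1 and Fcgr2b are also made by macrophages. The libraries came from unsorted liver, so that fewer endothelial cells and less RNA per endothelial cell cannot be told apart.

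RefSeq promoter sequences, which run from 250 bases before to 50 bases after the gene start on build GRCm38.p6, were given for 7 of the 10 genes (Stab1, Stab2, Kdr, Flt4, Tek, Clec4g and Fcgr2b) and not for Lyve1, Pecam1 and Oit3. Those of Stab2 and Kdr, the genes whose exonic reads fell at 240 min, and of Stab1, the paralog of Stab2, are shown as the regulatory sequence of the genes on which the results turn. Capitals mark AGGAAG, a core sequence bound by ETS factors, on either strand (CTTCCT where it lies on the opposite strand). The Stab2 promoter is at chr10:87007893-87008192, that of Kdr at chr5:75978406-75978705 and that of Stab1 at chr14:31168592-31168891, all on the minus strand and printed 5′ to 3′ along the gene.
Stab2: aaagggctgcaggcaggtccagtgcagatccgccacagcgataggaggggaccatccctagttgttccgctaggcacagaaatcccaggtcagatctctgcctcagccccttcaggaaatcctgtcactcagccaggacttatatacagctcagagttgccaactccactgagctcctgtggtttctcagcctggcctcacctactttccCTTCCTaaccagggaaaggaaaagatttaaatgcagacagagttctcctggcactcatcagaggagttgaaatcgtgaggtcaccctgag
Kdr: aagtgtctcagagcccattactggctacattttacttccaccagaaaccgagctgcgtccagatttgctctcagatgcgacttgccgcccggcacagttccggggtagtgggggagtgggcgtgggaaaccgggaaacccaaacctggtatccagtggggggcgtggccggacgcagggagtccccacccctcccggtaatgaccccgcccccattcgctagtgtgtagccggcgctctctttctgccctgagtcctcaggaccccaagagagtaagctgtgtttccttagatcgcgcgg
Stab1: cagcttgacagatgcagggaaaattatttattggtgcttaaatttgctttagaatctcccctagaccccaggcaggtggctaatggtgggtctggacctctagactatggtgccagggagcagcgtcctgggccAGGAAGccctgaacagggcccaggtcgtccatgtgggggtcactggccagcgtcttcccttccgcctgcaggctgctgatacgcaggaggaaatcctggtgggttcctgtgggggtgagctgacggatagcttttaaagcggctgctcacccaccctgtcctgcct
AGGAAG was present in 3 of the 7 promoters (Clec4g, Stab2 and Stab1) and in 35.4% of the 32851 promoters in the same table. In Stab2 its first base lay at offset -40 from the gene start, in Stab1 at -116, and in Clec4g 3 copies began at -123, -86 and -82, the last pair of which overlap. AGATAA, the core of the GATA motif, was found in 1 of the 7, Tek, and in 11.2% of all promoters. TTCNNNGAA, the STAT motif, was found in 0 of the 7 and in 8.3% of all promoters. The search took both strands and no other sequence, and a match or its lack in these windows is a description of the letters alone.

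The 10 genes were detected in every library. The libraries held 15935303 to 34452570 reads in all, and a gene had from 51 exonic reads (Lyve1) to 2205 (Stab2) in one library, and from 6 intronic reads (Lyve1) to 2725 (Stab2). Exonic and intronic reads of each library were recovered from the group means in the deposited table, and the libraries of a group are called the deeper and the shallower because the recovery does not tell which is pool 1. Levels of different genes are compared per length, in FPKM of exonic reads divided by a median-of-ratios scaling factor for each library. The 10 genes summed to 154 to 215 scaled CPM (reads relative to the total of the library) in the 8 libraries. Sets of 15 Kupffer cell, 14 stellate cell and 15 hepatocyte markers summed to 93.9 to 170, 161 to 191 and 30400 to 38550 CPM. Between the 2 libraries of a group the median gene differed by 0.19 to 0.23 on the log2 scale in exonic reads.

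Clec4g, a C-type lectin that binds viral and endogenous glycans, had the highest level of the 10, 10.6 ± 1.09 FPKM (mean ± SD, n = 8 libraries of all groups). Fcgr2b, the inhibitory Fc receptor that takes up immune complexes, followed at 8.87 ± 1.12 FPKM. The scavenger receptor Stab2, which clears hyaluronan, was at 6.85 ± 1.19 FPKM, and Kdr, the main signalling receptor for VEGF, at 6.49 ± 0.683 FPKM. Each of these 4 genes ranked above at least 88.0% of the genes with reads, and the ranges of neighbours in this order overlapped: Clec4g was above Fcgr2b in 6 of 8 libraries, and Stab2 was above Kdr in 6 of 8. Stab1, a second scavenger receptor, stood at 4.25 ± 0.641 FPKM, below Kdr in 8 of 8 libraries with ranges that did not overlap. Oit3, which encodes a zona pellucida domain protein, was at 3.25 ± 0.449 FPKM. Flt4, the receptor for VEGF-C, was at 2.56 ± 0.307 FPKM, and Pecam1, an adhesion molecule of endothelial junctions, at 2.17 ± 0.283 FPKM. These followed one another with overlapping ranges. The lowest levels were those of Tek, the angiopoietin receptor, at 1.37 ± 0.18 FPKM, and Lyve1, a hyaluronan receptor, at 1.3 ± 0.203 FPKM. Tek exceeded Lyve1 in 6 of 8 libraries, and Pecam1 lay above the whole range of Tek.

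**Figure D1:**
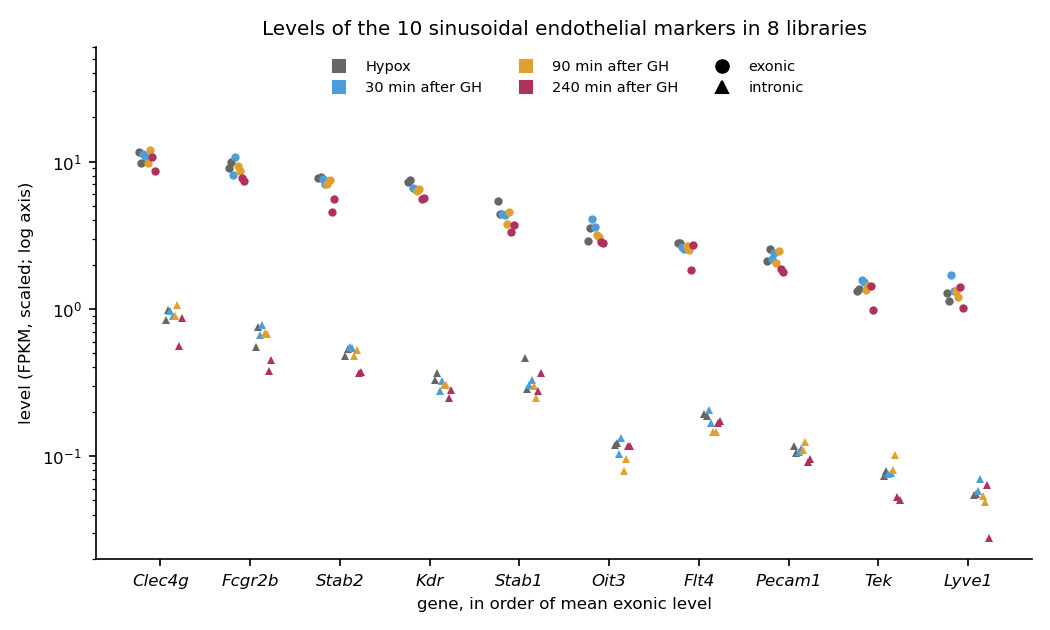
Levels of the 10 genes in each of the 8 libraries, in FPKM divided by the scaling factor of the library, on a log axis; circles are exonic and triangles intronic reads, colored by group. The exonic means run from 10.6 FPKM for Clec4g to 1.3 FPKM for Lyve1, and the intronic points lie below the exonic points of the same gene throughout.

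Intronic reads, which come largely from unspliced transcripts, were less dense than exonic reads for every one of the 10 genes. The mean intronic density was 3.42% of the exonic density for Oit3, 4.16% for Lyve1 and 4.69% for Kdr at the low end. It was 8.38% for Clec4g, 7.59% for Stab1 and 7.01% for Stab2 at the high end. Stab2 has introns of 158600 bases in all and exons of 8133 bases. It had 1308 to 2725 intronic reads in a library, more than any other of the 10. Tek has introns of 130986 bases in all, and gave 147 to 346. Clec4g has introns of 3346 bases in all, and gave 52 to 104. Stab2 and Oit3 both lie on chromosome 10 and Flt4 and Pecam1 both on chromosome 11, and each of the other 6 genes is on a chromosome of its own. In the coordinates of the table (build mm9), Stab1 at chr14:31952203-31981827 was the only one of the 10 to overlap another listed gene, by 108 bases at one end with Nt5dc2, and the sources used here do not give whether counting used strand. Nt5dc2 averaged 1.07 CPM at 240 min and 1.66 CPM in Hypox.

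The comparisons with Hypox ask what 1 GH pulse does to the liver transcriptome over 240 min. Each was tested with limma across all 13167 genes with at least 10 exonic reads in at least 2 libraries, and separately across 10166 genes with as many intronic reads. A gene is said to have risen or fallen where the Benjamini-Hochberg adjusted p over all genes was under 0.05. At 240 min Stab2 and Kdr fell in exonic reads, and the other 8 genes did not pass the test. The exonic log2 fold changes of the 10 genes were all below 0 at this time, from -0.01 for Lyve1 to -0.64 for Stab2. This sign was not kept by Lyve1 when library totals alone set the scale (0.06), with limma-voom (0.01) or without the deeper Hypox library (0.08), nor by Lyve1, Tek and Clec4g without the shallower 240 min library (up to 0.22), and all 10 were below 0 in the other 7 fits. Of all genes tested, 53.1% were below 0. The median log2 fold change was -0.32 over the 10 genes and -0.03 over all genes. The 2 called genes of 10 compare with 5.54% of all genes called lower at 240 min. In 7 of the 10 genes both 240 min libraries lay below both Hypox libraries, as they did in 29.9% of all genes. Summed over the 10 genes, the level was 154 and 164 CPM in the 240 min libraries, against 215 and 211 CPM in the Hypox libraries. This sum weighs Stab2, Kdr and Stab1 most, whose Hypox means were 63.5, 40.2 and 39.2 CPM.

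Among the scavenger and lectin receptors, Stab2 showed the largest exonic change. Its level was 63.4 and 63.5 CPM in the deeper and the shallower Hypox library, 61.5 and 57.4 CPM at 30 min, 56.9 and 61.1 CPM at 90 min, and 36.9 and 45.1 CPM at 240 min. Both 240 min libraries lay below all 6 others. The mean was 41.0 ± 5.75 CPM at 240 min and 63.5 ± 0.115 CPM in Hypox (SD, n = 2 each), a log2 fold change of -0.64 ± 0.12 (SE) with a 95% interval of -0.91 to -0.37 and a limma adjusted p of 0.0105, so that the level fell by 35.6%. The call was lost when either Hypox library was left out, with adjusted p of 0.0504 and 0.0668 and nearly the same log2 fold change (-0.63 in both). It was kept in the other 10 alternatives, and the adjusted p over all 12 was 0.00956 to 0.0668.

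Stab1 had 43.3 and 35.2 CPM in Hypox, 35.4 and 34.7 CPM at 30 min, 30.3 and 36.4 CPM at 90 min, and 26.4 and 29.9 CPM at 240 min. The 240 min libraries were the lowest pair, and the Hypox libraries differed from each other by 0.30 on the log2 scale. The log2 fold change at 240 min was -0.47 ± 0.14 with a limma adjusted p of 0.0549, and it did not pass in any of 12 alternatives (0.0512 to 0.285). Fcgr2b had 13.9 and 15.4 CPM in Hypox, 12.6 and 16.6 CPM at 30 min, 14.4 and 13.3 CPM at 90 min, and 11.99 and 11.5 CPM at 240 min. Both 240 min libraries were below all others, with a log2 fold change against Hypox of -0.32 ± 0.15 and a limma adjusted p of 0.196. Clec4g had 14.3 and 12.2 CPM in Hypox, 13.98 and 13.2 CPM at 30 min, 11.99 and 14.7 CPM at 90 min, and 13.3 and 10.7 CPM at 240 min. The groups overlapped, and the 95% interval of its log2 fold change at 240 min, -0.49 to 0.21, leaves room for a fall the size of that of Kdr. Lyve1, the least abundant, had 3.33 and 2.96 CPM in Hypox, 4.41 and 3.45 CPM at 30 min, 3.43 and 3.14 CPM at 90 min, and 3.68 and 2.64 CPM at 240 min. Its 240 min libraries lay on either side of the Hypox pair, and the interval of -0.48 to 0.46 was the widest of the 10.

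Among the receptor tyrosine kinases, Kdr fell. It had 39.7 and 40.8 CPM in Hypox, 36.2 and 35.4 CPM at 30 min, 34.4 and 35.4 CPM at 90 min, and 30.3 and 30.7 CPM at 240 min. The libraries of each group agreed closely, and those of every GH group lay below those of Hypox. The mean was 30.5 ± 0.235 CPM at 240 min and 40.2 ± 0.766 CPM in Hypox (SD, n = 2 each), a log2 fold change of -0.40 ± 0.10 with a limma adjusted p of 0.0334, and the level fell by 24.1%. The call was kept in 5 of 12 alternatives and lost in 7, among them all 4 that left out 1 library (adjusted p of 0.0839 to 0.157) and the authors' deposited table (0.26). The log2 fold change stayed between -0.41 and -0.33 in all 12.

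Flt4 had 16.3 and 16.4 CPM in Hypox, 15.3 and 15 CPM at 30 min, 15.6 and 14.6 CPM at 90 min, and 10.8 and 15.8 CPM at 240 min. Here the deeper 240 min library alone stood apart, and the log2 fold change of -0.32 ± 0.16 did not pass (limma adjusted p = 0.234). Without the shallower 240 min library it was -0.59 with a limma adjusted p of 0.0408. Tek had 6.27 and 6.44 CPM in Hypox, 7.39 and 7.16 CPM at 30 min, 6.36 and 6.7 CPM at 90 min, and 6.68 and 4.59 CPM at 240 min. Its 240 min libraries lay on either side of Hypox, and its log2 fold change was -0.19 ± 0.18. For Tek the shallower and for Flt4 the deeper library at 240 min was the low one. Pecam1 had 7.04 and 8.42 CPM in Hypox, 7.21 and 7.9 CPM at 30 min, 6.73 and 8.18 CPM at 90 min, and 6.13 and 5.86 CPM at 240 min. Both 240 min libraries were the lowest, with a log2 fold change of -0.36 ± 0.16 against Hypox and a limma adjusted p of 0.171. Oit3 had 7.82 and 9.62 CPM in Hypox, 11.1 and 9.75 CPM at 30 min, 8.57 and 8.36 CPM at 90 min, and 7.76 and 7.63 CPM at 240 min. Its highest pair was at 30 min and its lowest at 240 min, and neither group passed the test against Hypox.

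**Figure D2:**
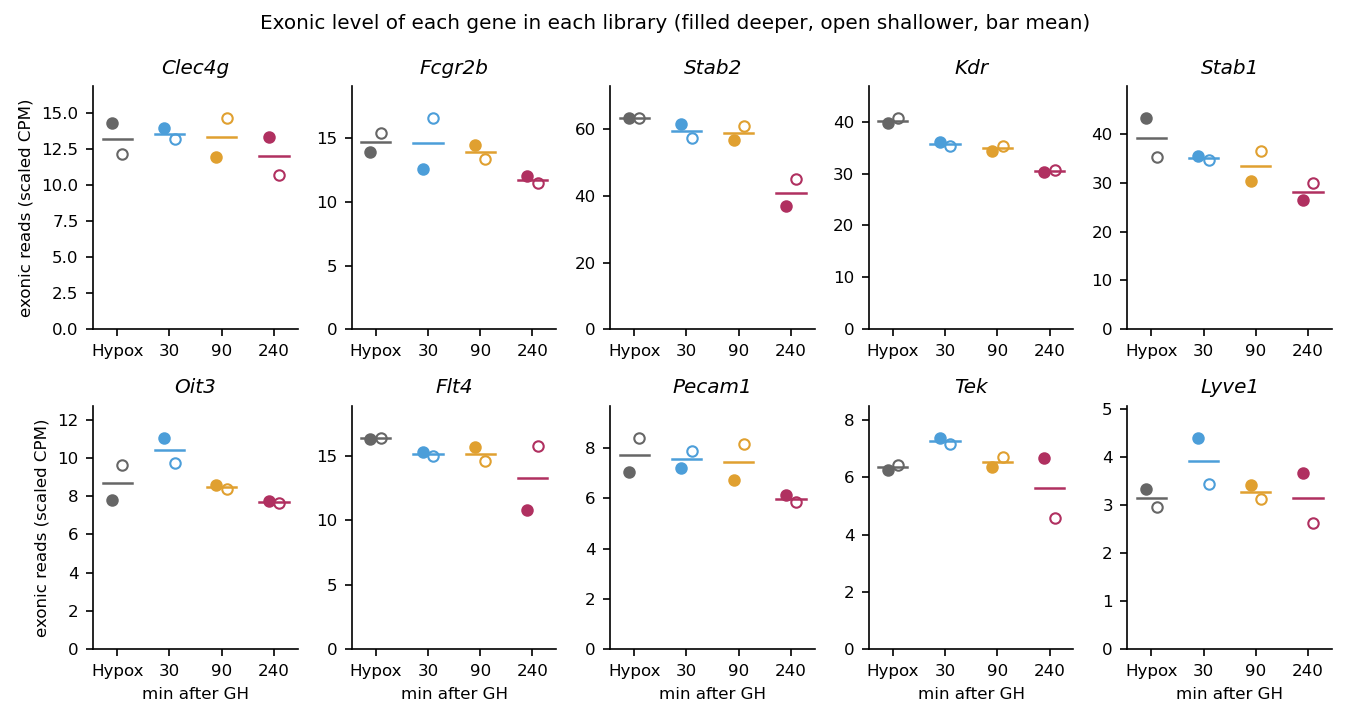
Exonic level of each gene in scaled CPM, from 0, in the Hypox libraries and 30, 90 and 240 min after GH; filled points are the deeper and open points the shallower library of a group, and bars are group means of 2 libraries. The 240 min points of Stab2 (36.9 and 45.1 CPM) and Kdr (30.3 and 30.7 CPM) lie below all others of their gene, whereas those of Tek and Lyve1 lie on either side of Hypox.

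At 30 min none of the 10 genes passed the test in exonic reads (limma), none had an unadjusted p under 0.05, and limma-voom and the authors' deposited table called none either. Of all genes, 0.0684% were called by limma at this time in either direction, and 0.434% of the rows in the authors' deposited table. The log2 fold changes ran from -0.17 for Kdr to 0.30 for Lyve1, with a median of -0.03 over the 10 genes and -0.01 over all genes. Lyve1, Tek and Oit3 had both libraries above both Hypox libraries, as did 17.8% of all genes, and Stab2, Kdr and Flt4 had both below, as did 20.6% of all genes.

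At 90 min again none of the 10 was called by limma, none had an unadjusted p under 0.05, and limma-voom and the authors' deposited table called none, beside 0.835% of all genes called by limma and 1.6% of the rows in the authors' deposited table. The log2 fold changes lay between -0.23 for Stab1 and 0.06 for Lyve1, with a median of -0.07 over the 10 genes and -0.02 over all genes. The 3 genes with both libraries below Hypox were again Stab2, Kdr and Flt4, beside 22.8% of all genes. The 3 comparisons share the Hypox libraries and are not independent of each other. For Kdr the log2 fold changes were -0.17 (30 min), -0.21 (90 min) and -0.40 (240 min), and for Stab2 they were -0.10, -0.11 and -0.64.

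**Figure D3:**
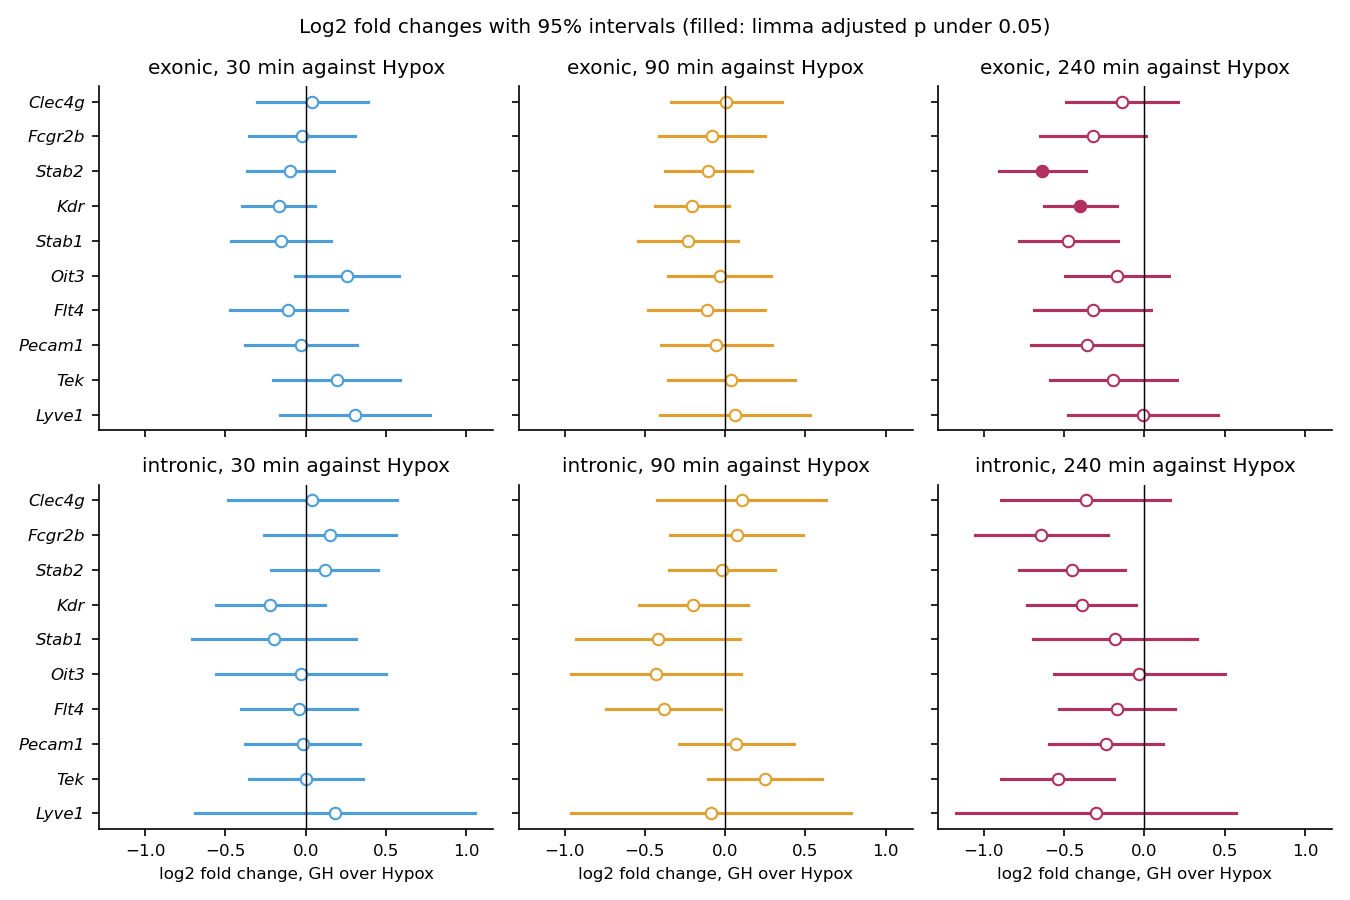
Log2 fold changes of the 10 genes, GH over Hypox, with 95% intervals from limma, for exonic reads (top) and intronic reads (bottom) at 30, 90 and 240 min; filled points passed an adjusted p of 0.05 over all genes. Only Stab2 (-0.64) and Kdr (-0.40) are filled, both exonic at 240 min; all points of that time lie below 0, a sign that exonic Lyve1, Tek and Clec4g and intronic Oit3, Stab1 and Lyve1 did not keep under at least 1 other scale, tool or left-out library.

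The intronic reads were a second measure of the same libraries. At 240 min none of the 10 genes passed the limma test in intronic reads, beside 11.2% of all genes. The unadjusted p was under 0.05 for 4 of them (Stab2, Kdr, Tek and Fcgr2b), beside 2753 of all 10166 genes. Neither limma-voom nor the authors' deposited table, which calls 6.04% of its rows in introns at this time, called any of the 10. All 10 log2 fold changes were below 0, beside 50.7% of all genes. This sign was not kept by Oit3 when library totals alone set the scale (0.05), by Stab1 without the deeper Hypox library (0.15) or the deeper 240 min library (0.01), or by Lyve1 without the shallower 240 min library (0.18). Their median was -0.33, against -0.01 over all genes. Both 240 min libraries lay below both Hypox libraries in 7 of the 10 genes, and in 28.5% of all genes.

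Fcgr2b had the largest intronic difference. Its intronic level was 7.75 and 10.6 CPM in Hypox, 9.32 and 10.9 CPM at 30 min, 9.55 and 9.49 CPM at 90 min, and 5.26 and 6.33 CPM at 240 min. The 240 min libraries were below all 6 others, and the log2 fold change against Hypox was -0.64 ± 0.19 with a limma adjusted p of 0.0507. This p fell under 0.05 in 3 of 12 alternatives and ranged from 0.0323 to 0.377. Intronic Tek had 9.57 and 10.3 CPM in Hypox, 9.85 and 10.03 CPM at 30 min, 10.6 and 13.3 CPM at 90 min, and 6.97 and 6.64 CPM at 240 min. Again the 240 min pair was the lowest, at -0.54 ± 0.16 against Hypox with a limma adjusted p of 0.0536. Intronic Stab2 had 76.3 and 84.1 CPM in Hypox, 87.4 and 86.3 CPM at 30 min, 75.5 and 83.0 CPM at 90 min, and 57.9 and 59.1 CPM at 240 min. Its 240 min libraries were below all others, at -0.45 ± 0.15 with a limma adjusted p of 0.0781. Kdr introns had 13.2 and 14.5 CPM in Hypox, 11.0 and 12.8 CPM at 30 min, 12.1 and 11.99 CPM at 90 min, and 9.83 and 11.3 CPM at 240 min. The 240 min pair lay below Hypox and overlapped the 30 min pair. The log2 fold change at 240 min was -0.39 in intronic and -0.40 in exonic reads of Kdr, with a limma adjusted p of 0.131 for the intronic one. The differences between exonic and intronic changes were not tested.

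The other 6 genes had no intronic change with an unadjusted p under 0.05 at 240 min. Pecam1 introns had 6.72 and 6.09 CPM in Hypox, 6.17 and 6.46 CPM at 30 min, 6.32 and 7.16 CPM at 90 min, and 5.26 and 5.56 CPM at 240 min. Flt4 introns had 7.25 and 7.01 CPM in Hypox, 7.61 and 6.29 CPM at 30 min, 5.46 and 5.43 CPM at 90 min, and 6.2 and 6.46 CPM at 240 min. Flt4 thus had its lowest intronic pair at 90 min, with a log2 fold change of -0.38 against Hypox, while its lowest exonic mean was at 240 min. Stab1 introns had 9.99 and 6.22 CPM in Hypox, 6.59 and 7.14 CPM at 30 min, 6.44 and 5.37 CPM at 90 min, and 6.02 and 7.95 CPM at 240 min. The wide Hypox pair of Stab1 in introns, as in exons, had the deeper library above the shallower. Clec4g introns had 2.8 and 3.3 CPM in Hypox, 3.26 and 3.01 CPM at 30 min, 2.99 and 3.58 CPM at 90 min, and 1.89 and 2.89 CPM at 240 min. Oit3 introns had 1.9 and 1.97 CPM in Hypox, 1.67 and 2.15 CPM at 30 min, 1.28 and 1.55 CPM at 90 min, and 1.89 and 1.9 CPM at 240 min. The lowest Oit3 intronic pair was at 90 min (-0.43 against Hypox), a time at which its exonic pair overlapped Hypox. Lyve1 introns had 0.532 and 0.54 CPM in Hypox, 0.568 and 0.68 CPM at 30 min, 0.519 and 0.477 CPM at 90 min, and 0.617 and 0.271 CPM at 240 min, where 6 to 19 reads lay behind each value. At 30 and 90 min none of the 10 intronic changes passed the limma test, beside 2.43% of all genes at 30 min and 7.46% at 90 min, and limma-voom and the authors' deposited table called none. The number with an unadjusted p under 0.05 was 0 at 30 min and 1, Flt4, at 90 min, beside 1399 and 2066 of all 10166 genes. The authors' deposited table has 1.85% of its rows at an intronic adjusted p under 0.05 at 30 min and 5.2% at 90 min.

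The times after GH were also set against each other, in the same fit over all 4 groups. Exonic Stab2 fell at 240 min relative to 90 min, by 0.53 on the log2 scale (limma adjusted p = 0.0347), and relative to 30 min, by 0.54 (limma adjusted p = 0.0215). It was the only one of the 10 called in either comparison of exonic reads, beside 2.48% of all genes called lower at 240 min than at 90 min and 5.0% called lower than at 30 min. The calls were kept in 5 of 11 alternatives against 90 min and 6 of 11 against 30 min, and every log2 fold change was between -0.68 and -0.38. They were lost when the fit held only the 2 groups compared (limma adjusted p of 0.06 and 0.0684) and without the deeper 240 min library (limma adjusted p of 0.121 against 90 min and 0.0885 against 30 min) and without either library of the earlier time (0.125 and 0.198 at 90 min, 0.12 and 0.0645 at 30 min). Kdr was below both earlier times in both 240 min libraries, with log2 fold changes of -0.19 against 90 min and -0.23 against 30 min that did not pass (limma adjusted p of 0.32 and 0.195). Oit3 differed by -0.43 between 240 and 30 min, with a limma adjusted p of 0.0918.

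In intronic reads Tek and Fcgr2b fell at 240 min relative to 90 min, by 0.79 (limma adjusted p = 0.0105) and by 0.71 (limma adjusted p = 0.033). They were 2 of 10 genes, beside 5.8% of all genes called lower in that comparison. Relative to 30 min, Fcgr2b fell by 0.79 (limma adjusted p = 0.0222) and Stab2 by 0.57 (limma adjusted p = 0.0357), 2 of 10 beside 5.61% of all genes. Tek had its highest intronic level at 90 min in both libraries and its lowest at 240 min, whereas its exonic libraries at these times overlapped. Intronic Stab2 against 30 min was called in 3 of 11 alternatives and in no fit that left out 1 library (limma adjusted p of 0.0786 to 0.143). Fcgr2b against 90 min was lost in all 4 such fits (0.0671 to 0.176), and against 30 min without the shallower 30 min library (0.135) or the deeper 240 min library (0.145). Tek against 90 min was lost without the shallower 90 min library (0.105) or the shallower 240 min library (0.0629). Between 90 and 30 min none of the 10 was called in either kind of read by limma or limma-voom, none had an unadjusted p under 0.05, and 0.0% of all genes were called by limma.

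The authors' deposited table, which was made from the same libraries, gave ratios of GH over Hypox below 1 for 9 of the 10 genes in gene body reads at 240 min, Lyve1 being at 1.017, and for 10 of 10 in introns. It had 1 adjusted p under 0.05 for these genes at any time, that of Stab2 in gene body reads at 240 min, with a ratio of 0.65 and an adjusted p of 0.0228 in the authors' deposited table. There the next were intronic Fcgr2b at 240 min, with a ratio of 0.639 and an adjusted p of 0.0983 in the authors' deposited table, and intronic Tek, with 0.693 and 0.17. Beside these, the authors' deposited table has 2.51% of its gene body rows at an adjusted p under 0.05 and lower at 240 min.

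Other genes of endothelium were described by counts. Of 42 further endothelial genes tested, 3 fell and 0 rose in exonic reads at 240 min (limma). An unadjusted p under 0.05 was found for 10 in the lower and 0 in the higher direction, beside 3637 of all 13167 genes in either direction. Those 3 of 42 stand beside 5.54% of all genes called lower at this time. Log2 fold changes were below 0 in 34 of the 42, beside 53.1% of all genes, and the median was -0.23. Aqp1, a water channel, had 20.2 and 19.4 CPM at 240 min, against 30.8 and 26.7 CPM in Hypox (log2 fold change -0.53 ± 0.12, limma adjusted p = 0.0173). Eng, a co-receptor for TGF-beta and BMP9, had 12.99 and 12.9 CPM at 240 min, against 17.1 and 19.4 CPM in Hypox (-0.49 ± 0.12, limma adjusted p = 0.028). F8, coagulation factor VIII, had 13.1 and 10.2 CPM at 240 min, against 17.2 and 16.5 CPM in Hypox (-0.54 ± 0.14, limma adjusted p = 0.0333). In each of these 3 genes both 240 min libraries lay below both Hypox libraries, and the authors' deposited table called none of the 42. The calls of Eng, F8 and Aqp1 were kept in 5, 6 and 7 of 12 alternatives, and each was lost without the deeper Hypox library or without the shallower 240 min library, with limma adjusted p of up to 0.178, 0.152 and 0.111 over the fits that left out 1 library. At 30 and 90 min limma, limma-voom and the authors' deposited table called none of the 42. At each time 2 had an unadjusted p under 0.05, beside 924 of all 13167 genes at 30 min and 1297 at 90 min. The smallest p at both times was that of Il1a, a cytokine, which had 1.4 and 1.86 CPM at 30 min and 2.03 and 1.78 CPM at 90 min, against 3.05 and 2.61 CPM in Hypox.

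Among 19 genes of the VEGF and angiopoietin pathway, 1 rose and 1 fell at 240 min, beside 5.72% of all genes called higher and 5.54% called lower. The list holds ligands, co-receptors, signal transducers and the receptor genes Flt1 and Tie1, but not the 3 receptors above. Flt1, Tie1, Ptprb and Nos3 are also among the 42 endothelial genes. Nrp1, a co-receptor for VEGF and semaphorins that is also made outside endothelium, had 127 and 120 CPM at 240 min, against 55.0 and 34.0 CPM in Hypox (1.51 ± 0.25, limma adjusted p = 0.00538). Plcg1, a phospholipase that acts downstream of KDR, had 7.57 and 8.63 CPM at 240 min, against 12.1 and 11.9 CPM in Hypox (-0.56 ± 0.14, limma adjusted p = 0.0263). Nrp1 was called in 12 of 12 alternatives and Plcg1 in 6 of 12, lost without either Hypox library or the deeper 240 min library (limma adjusted p of 0.0446 to 0.118 over the 4 fits that left out 1 library). The pathway median was -0.11, nearer to that of all genes than the median of the 10 markers was. Vegfa, the ligand of KDR, had the smallest p of the pathway at 90 min, with 68.3 and 78.1 CPM at 90 min, against 55.1 and 54.6 CPM in Hypox. Both 90 min libraries were above Hypox, and the log2 fold change of 0.41 ± 0.12 did not pass (limma adjusted p = 0.229). At 30 min 16 of the 19 had a log2 fold change below 0, with a median of -0.14 beside -0.01 over all genes. None was called by limma, limma-voom or the authors' deposited table, and 1 had an unadjusted p under 0.05, beside 924 of all 13167 genes. The smallest p was that of Angptl6, with 2.69 and 1.33 CPM at 30 min, against 2.7 and 3.36 CPM in Hypox.

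Among 9 adhesion molecules, Icam2 and Cd34 are also counted in the 42 endothelial genes. Of the 9, Icam1, which binds leukocytes and is made by many liver cells, was the only one called. It had 5.7 and 4.98 CPM at 30 min, against 14.97 and 13.1 CPM in Hypox, and fell by 1.38 on the log2 scale (limma adjusted p = 0.00489). That call was lost without the deeper Hypox library (0.0849). At 240 min it had 7.72 and 7.77 CPM, and was lower than Hypox by a log2 fold change of -0.85 (limma adjusted p = 0.00496), in 12 of 12 alternatives. The median log2 fold change of the 9 at 240 min was -0.24, with 7 of 9 below 0, beside 53.1% of all genes. Of 10 angiocrine factors, genes by which endothelium signals to its neighbours, limma, limma-voom and the authors' deposited table called none at any time. Their median at 240 min was -0.23, with 8 of 10 below 0. At an unadjusted p under 0.05 there was 1 at 90 min, 1 at 240 min and 0 at 30 min, beside 1297, 3637 and 924 of all 13167 genes. The smallest p belonged to Efnb2 at 30 min (0.33 ± 0.23), to the chemokine gene Cxcl12 at 90 min, with 87.0 and 80.8 CPM at 90 min, against 98.3 and 113 CPM in Hypox (-0.33 ± 0.13), and to the Notch ligand gene Dll4 at 240 min (-0.55 ± 0.23).

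Markers of other liver cells passed the test at 240 min too, 4 higher and 2 lower of 71, beside 5.72% and 5.54% of all genes. All 15 Kupffer cell markers had a log2 fold change below 0, beside 53.1% of all genes, with a median of -0.44. Of the 15, 6 had an unadjusted p under 0.05, beside 3637 of all 13167 genes in either direction. The 15 summed to 125 and 93.9 CPM at 240 min, against 143 and 170 CPM in Hypox. Slc40a1, the iron exporter, was the 1 that fell (-0.80 ± 0.13, limma adjusted p = 0.00469). The 14 stellate cell markers had a median of -0.06 and none was called by limma, limma-voom or the authors' deposited table (1 at an unadjusted p under 0.05, lower). Their sum was 161 and 167 CPM at 240 min, against 178 and 178 CPM in Hypox. The 15 hepatocyte markers, of which Tat fell (-1.11 ± 0.23, limma adjusted p = 0.0138), had a median of -0.16 and summed to 32000 and 30400 CPM at 240 min, against 37670 and 38230 CPM in Hypox. In the opposite direction, 4 of 7 cholangiocyte markers rose, namely Spp1, Tspan8, Krt19 and Krt7, and the list summed to 16.0 and 25.7 CPM at 240 min, against 8.08 and 10.4 CPM in Hypox. Of the 240 min sums, 10.5 and 14.8 CPM were Spp1. Tspan8, Krt19 and Krt7 had few reads, with 0.115 to 0.283 CPM in Hypox and 0.743 to 2.27 CPM at 240 min. The 9 leukocyte markers summed to 13.4 and 11.95 CPM at 240 min, against 14.3 and 16.9 CPM in Hypox, the 5 smooth muscle and mesothelial markers tested had a median of -0.11, and the 6 red blood cell markers had a median of 0.09. Of the 6, Hba-a1 and Hba-a2 had the same log2 fold change and SE (0.04 ± 0.25), as did Hbb-b1 and Hbb-bs (0.14 ± 0.36). Both pairs are counted as separate genes here and among the 71. None of these last 3 lists held a gene called by limma or limma-voom at 240 min, with 2, 1 and 0 genes at an unadjusted p under 0.05, while the authors' deposited table called 1 leukocyte and 1 smooth muscle or mesothelial marker. Among lists without a call, the smallest p was that of Reln for stellate cells (-0.40 ± 0.12), Msln for smooth muscle and mesothelium (1.26 ± 0.47) and Hbb-b2 for red blood cells (0.28 ± 0.48). Slc40a1 was called in 12 of 12 alternatives and Tat in 10 of 12 (limma adjusted p of up to 0.0958, without the shallower Hypox library or the deeper 240 min library), while each cholangiocyte call was lost without the deeper Hypox library (limma adjusted p of up to 0.238 for Krt7, 0.173 for Krt19, 0.115 for Tspan8 and 0.102 for Spp1 over the fits that left out 1 library). At 30 and 90 min limma and limma-voom called none of these 71 markers of other cell types, and the authors' deposited table called 1 and 4. An unadjusted p under 0.05 was found for 7 and 4 of them, beside 924 and 1297 of all 13167 genes. The part of these cell type markers in the fall of Stab2 and Kdr was not tested.

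**Figure D4:**
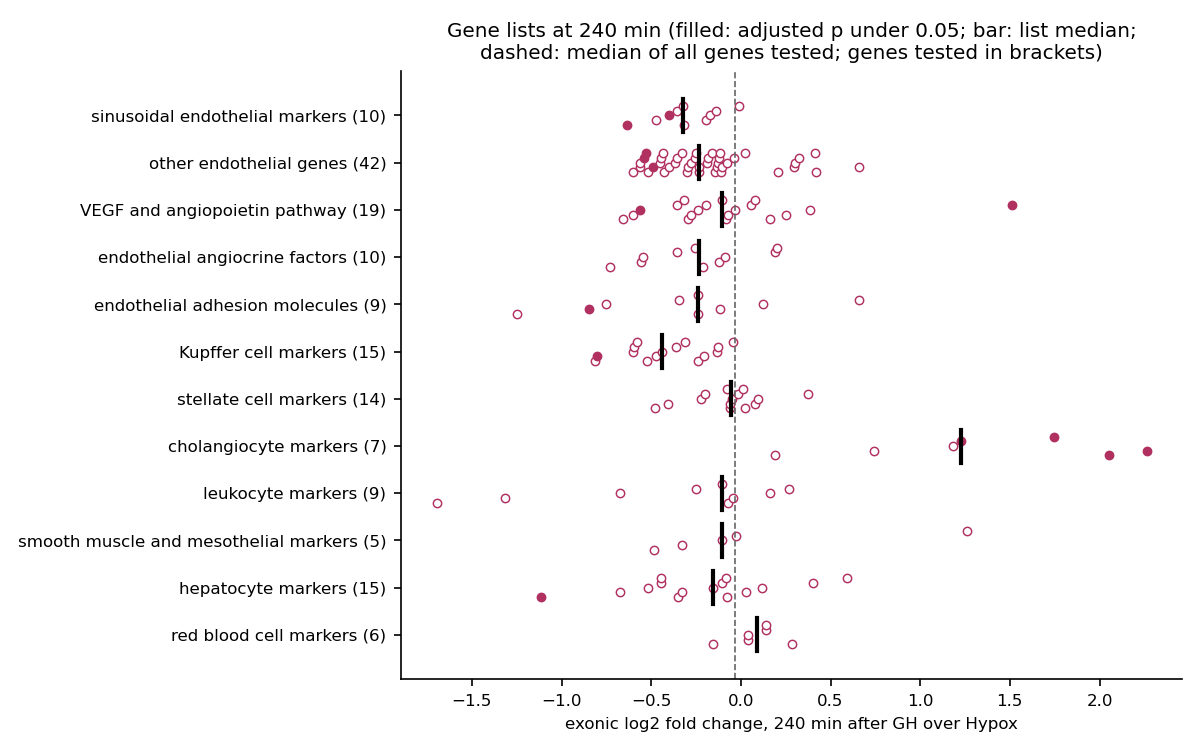
Exonic log2 fold changes at 240 min, GH over Hypox, of the genes in each list, with the list median as a bar, genes past a limma adjusted p of 0.05 filled, and the median of all genes tested as a dashed line. The 10 sinusoidal endothelial markers (median -0.32) and the Kupffer cell markers (median -0.44) lie mostly left of that line, at -0.03, and the cholangiocyte markers right of it.

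The exonic profiles of the 10 genes over the 8 libraries were averaged after each log2 level was centred on its own mean. The averaged profile was 0.08 and 0.09 log2 units in Hypox and 0.13 and 0.09 log2 units at 30 min. It was -0.02 and 0.05 log2 units at 90 min and -0.19 and -0.24 log2 units at 240 min, so that the 240 min libraries alone lay below all the rest. Among 6380 other genes that averaged 5 CPM or more, the 5 with the most similar profile were Pex13, Dcaf7, Prelid1, Baz2a and Ndufv3. They differed from it by a mean of 0.03 to 0.04 on the log2 scale over the 8 libraries, against 0.17 for the median gene, and none of them was in a list above or passed the test at 240 min. The nearest gene was Slc38a7 for Stab2, Emc10 for Kdr, Vat1 for Stab1, Mtx3 for Fcgr2b, Rap2c for Clec4g and the hepatocyte marker Ass1 for Lyve1. For Flt4 it was Myo9b, for Tek Cep68, for Pecam1 Galt and for Oit3 Pacsin2. All of them were picked by likeness over the same 8 libraries, so that a 240 min change near that of their member follows from the choice. Of these 10 neighbours, Slc38a7 alone passed the test at 240 min (-0.61, limma adjusted p = 0.0196), in 8 of 12 alternatives and not without either Hypox library or the deeper 240 min library (up to 0.0982).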

How the data were processed

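RNA-seq of 8 liver libraries was analysed from 1 deposited table. Per the submitters' processing notes, the authors used TopHat2, featureCounts and edgeR with build mm9; versions and settings are not given in the sources used here. The deposited values are mean FPKM of the 2 libraries of a group over the gene body, mean FPKM signal over introns alone, normalized ratios of GH over Hypox, and adjusted p-values, per the file headers. Gene body values matched reads over exons.

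Because 1 read adds a fixed step to a mean FPKM, library totals, lengths and whole reads per library were solved from the decimals of genes without introns and then of all genes. Whole reads were obtained for 18359 of 18359 genes with a gene body value and 14440 of 14441 with an intronic one. With totals shifted by 1000 reads, the share of whole values dropped to 0 of 1000 genes tried. Each gene was held there at the length found with the unshifted totals, and no length was searched anew for the shifted ones. The recovery was tested on simulated data. In 9565 of the 9565 genes that had 50 or more exonic and intronic reads, both lengths summed to the span. This sum is in part set by the procedure. An intronic length equal to the span less the exonic length was preferred wherever it was possible, and lengths of 70 genes were multiplied to reach the span.

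Log2(CPM + 0.1), scaled by medians of ratios, was fitted for 4 groups with limma 3.58.1 (R 4.3.3) with a trended variance, for 6 pairs of groups, two-sided, with Benjamini-Hochberg adjustment. Fold changes are on this scale, which understates those of low genes. Pools give the n of 2, so that p-values measure the spread between pools of 4 mice. Intervals are 95% intervals of the fit. The 10 genes and all lists were chosen with earlier results of these data known. Named besides the 10 are, per list and time, up to 4 called genes with the smallest p or else the 1 with the smallest p, the nearest profiles and overlapping genes. One gene under this rule is not reported here. From 6 lists, 12 genes had too few reads to be tested (Madcam1 had 0 in every library), and 1 was not found. Alternatives were pseudocount, filters, scaling, limma-voom, 2-group fits, leaving out each library, and the authors' adjusted p.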

Additional observations from a re-analysis of the deposited data

Results flagged for a closer look

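Effects of GH at 2 times differed by a test of the difference itself (limma over all genes) in 6 cases, each lower at 240 min than at the earlier time in both libraries. In exonic reads Stab2 differed by -0.53 between 240 and 90 min and by -0.54 between 240 and 30 min. In intronic reads Stab2 differed by -0.57 between 240 and 30 min, Fcgr2b by -0.71 between 240 and 90 min and by -0.79 between 240 and 30 min, and Tek by -0.79 between 240 and 90 min. Exonic Fcgr2b and Tek, at -0.24 and -0.23 between 240 and 90 min, did not pass the same test. With 2 libraries a group, no single library could be tested as standing apart.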

How the results depend on the processing

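All log2 fold changes called in these genes kept their sign under every alternative run. At 240 min against Hypox, 2 genes were called lower in exonic reads. The number was 1 with library totals alone as the scale, 1 with only the 2 groups compared, 1 in the authors' deposited adjusted p, and 0 to 2 when 1 library was left out. Leaving out either Hypox library gave 0 and the deeper 240 min library 1. In the exonic comparison of 240 with 90 min, 1 gene was called, and 0 with library totals alone, with quantile normalization and with only the 2 groups compared, and 0 to 1 when 1 library was left out. Against 30 min, 1 was called, and 0 with library totals alone and with only the 2 groups compared, and 0 to 1 when 1 library was left out.

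In intronic reads 0 genes were called at 240 min against Hypox, 2 with at least 50 reads on average (Tek and Fcgr2b), 1 with quantile normalization (Fcgr2b), and 0 to 1 when 1 library was left out. Against 90 min 2 were called, Tek and Fcgr2b, and neither call was kept in every fit that left out 1 library. Over the 11 alternatives the log2 fold change was -0.95 to -0.63 for Tek and -0.84 to -0.58 for Fcgr2b. Against 30 min 2 were called, Stab2 and Fcgr2b, and 1 without a filter on low values, 0 with library totals alone and 1 with only the 2 groups compared. Tek was called in addition with at least 50 reads on average, and in place of Stab2 with quantile normalization. Neither the Stab2 nor the Fcgr2b call was kept in every fit that left out 1 library. Their log2 fold changes over the 11 alternatives were -0.58 to -0.31 and -0.92 to -0.59. Library totals alone moved the intronic median of all genes to 0.21 between 240 and 30 min, from 0.02, to 0.17 between 90 and 30 min, and to -0.14 between 30 min and Hypox, and the exonic one to 0.11 between 240 and 30 min. The cause was not tested. Among the log2 fold changes of single genes, 37 lost a call and 8 gained one of 1368 compared. Fits that left out a library took the lone library to vary like those of the other groups.

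No paired analysis was possible because the deposited values are means of a group, and the recovered libraries carry no pool number. A group of 2 pools limits every test: the median SE of a log2 fold change over all genes was 0.20 in exonic and 0.24 in intronic reads.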
